A study of Mus musculus with 106 samples.

Results

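The 10 genes described here, Lpl, Gpihbp1, Lmf1, Angptl4, Cd36, Vldlr, Fabp3, Fabp4, Slc27a1 and Slc27a2, take part in the uptake of lipid from circulating lipoproteins. They were set by name, by a rule that uses no measured value but with earlier results of these data known, and all 10 were found in each of the 4 count tables, among 19168 gene symbols common to the tables. RNA sequencing counts were available for 106 libraries from 11 tissues of male wild-type C57BL/6J mice, in 31 groups of a tissue and a temperature. Mice were kept at 10 °C for 2 weeks, after steps of 5 days each at 18 and 14 °C, or at 34 °C for 4 weeks, and the controls stayed at 22 °C, which the study calls room temperature (RT). The labels give an age of 11 weeks for the cold experiment and of 12 weeks for the warm experiment and for all quadriceps libraries. Interscapular brown adipose tissue (iBAT), inguinal subcutaneous (ingSAT) and perigonadal visceral (pgVAT) adipose tissue, liver, ileum, spleen, brain and hypothalamus had 3 libraries at 22 °C and 3 at 10 °C. Bone marrow had 6 and 6, spinal cord 5 and 5, and quadriceps 6 libraries at 22 °C, 3 at 10 °C and 3 at 34 °C. At 34 °C, iBAT, ileum, liver and brain had 3 libraries each, with 3 controls of their own. The 6 quadriceps controls served both temperatures, so the quadriceps comparisons are not independent. The study names different mouse suppliers for the cold and the warm experiment, and the sample titles do not assign these 6 controls to either. Most libraries pooled 2 mice, while those of bone marrow and spinal cord came from 1 mouse each, and in iBAT of the warm experiment the number of mice differed between the groups compared. There the 3 controls were 1 mouse each, and the 34 °C group held 2 libraries of 1 mouse and 1 pool of 2 mice.

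Triglyceride travels in blood inside very low density lipoproteins and chylomicrons, and lipoprotein lipase (Lpl) on the capillary wall frees its fatty acids. Lmf1 is the chaperone that folds the lipase in the endoplasmic reticulum, Gpihbp1 is the endothelial protein that carries it to the capillary lumen and anchors it there, and Angptl4 is a secreted inhibitor of it. Vldlr is a receptor that binds triglyceride-rich lipoproteins, Cd36 is a scavenger receptor that takes up long chain fatty acids, Slc27a1 and Slc27a2 are fatty acid transport proteins with acyl-CoA synthetase activity, and Fabp3 and Fabp4 bind fatty acids in the cytoplasm. Several of these genes are textbook targets of the PPAR nuclear receptors, and brown adipose tissue is a known site of triglyceride clearance in the cold.

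The site that PPAR and related nuclear receptors read holds the half-site AGGTCA, so it was looked for on both strands of the RefSeq promoter windows (assembly GRCm38.p6) around the gene starts. Of the 10 genes, 6 had a window, 9 windows in all, and the half-site was present in 2 of these 9 windows and in 16.3% of 32851 windows of the same length. The half-site repeated in the same direction with 1 free base between was in 0 of the 9 windows and in 0.0396% of all windows. With the fourth base of both copies free as well, the counts were 0 of 9 and 0.381%. A match is a description of letters and not a binding site. The 2 stretches with a match are shown 5′ to 3′ on the strand of the gene, with the half-site in capitals, which reads TGACCT here because it lies on the other strand. The first capital lies at -228 from the start of Cd36 (stretch at chr5:17836107-17836136, minus strand) and at -220 from that of Slc27a2 (stretch at chr2:126552792-126552821, plus strand). Positions are counted from the RefSeq start of the window, which for both genes lies inside the span that the GENCODE annotation, used for the gene positions given here, assigns to the gene.
Cd36: ctctgcactttaTGACCTgagattttcagg
Slc27a2: gcaccacgccttTGACCTtttcaacgtggg

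Libraries held between 4262403 and 62880248 counts on genes, with a median of 21585677. Some libraries stood apart by markers of other cell types. The second brain library at 22 °C in the cold experiment had 50640 CPM (read counts scaled to 1000000 per library, with library sizes adjusted by TMM over the table) summed over 5 hepatocyte markers, against 716–1067 CPM in the other 5 brain libraries of that experiment. The second pgVAT library at 10 °C had 2.85 CPM of 5 epididymis markers, against 16960 and 18650 CPM in the others at 10 °C and 544–2401 CPM at 22 °C. The third liver library at 22 °C in the cold experiment had 132 CPM of 6 adipocyte markers, against 4.82–26.95 CPM in the other 5. These libraries were kept, and results that changed without them are given both ways. In bulk tissue, fewer cells of a type and less RNA per cell cannot be told apart.

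At 22 °C the genes were highest in fat. In the table of 8 tissues, 8 of the 10 had their highest mean CPM in an adipose depot, 5 of them in iBAT, 2 in pgVAT and 1 in ingSAT, and for 6 of them the 3 depots took the 3 highest places. The other 2, Lmf1 and Slc27a2, were highest in liver. With scaling by library size alone the highest tissue changed for 3 genes. It became iBAT for Lmf1, with a mean of 58.2 CPM against 52.0 CPM in liver, pgVAT for Fabp4 and ingSAT for Angptl4, in each case with a range that overlapped with that of the next tissue. Per kilobase of transcript, which allows genes to be set beside each other, the binding protein Fabp4 stood far above the rest in iBAT, with 13009 CPM per kb. Cd36 followed with 1103 and Lpl with 964 CPM per kb. The anchor Gpihbp1, at 123 CPM per kb, was well below the lipase it binds, and the chaperone Lmf1 was the lowest of the 10 in iBAT, at 36.3 CPM per kb.

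Lpl was measured at 5410, 6416 and 7517 CPM in pgVAT, at 4327, 5616 and 7172 CPM in ingSAT and at 3086, 3229 and 5586 CPM in iBAT. The ranges of neighbouring depots overlapped, and all 9 depot libraries were above every library of the other 5 tissues, of which liver came next with 28.9–104 CPM. Gpihbp1 had 94.1–108 CPM in iBAT, above the 50.9–80.9 CPM of the other depots, whose ranges overlapped. With scaling by library size alone, iBAT, at 84.3–91.5 CPM, overlapped with pgVAT, at 68.7–88.1 CPM. Angptl4 (chr17:33773750-33781830) did not separate the depots, with means of 521 ± 70.6 (SD, n = 3) in iBAT, 498 ± 112 in ingSAT and 365 ± 89.2 CPM in pgVAT, and liver followed at 188 ± 29.5 CPM.

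The carriers and binding proteins differed more in where they were found. Cd36 and Fabp4 overlapped between all neighbouring depots and were below the depots everywhere else, with spleen next for Cd36 (247–315 CPM). Slc27a1 was lower in iBAT (250–428 CPM) than in pgVAT (446–663 CPM), which overlapped with ingSAT (542–919 CPM). Vldlr was 489–575 CPM in iBAT and 141–213 CPM in ingSAT, while pgVAT, at 100.6–112 CPM, overlapped with hypothalamus at 105–119 CPM.

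Fabp3 and Slc27a2 were the genes with little RNA in white fat. Fabp3 was 92–265 CPM in iBAT but 1.03–1.62 CPM in ingSAT, with brain (5.30–14.6 CPM) and hypothalamus (7.34–7.66 CPM) in between. Slc27a2 was 2904–3032 CPM in liver, 324–689 CPM in iBAT, 8.94–13.8 CPM in pgVAT and 2.05–2.85 CPM in ingSAT. Its brain mean rested on the library with hepatocyte markers, which had 958 CPM against 9.76 and 9.42 CPM in the other two. In the separately normalized table with quadriceps, muscle held 367–552 CPM of Fabp3, which overlapped with the 425–487 CPM of iBAT there, and Vldlr was higher in quadriceps (368–560 CPM) than in iBAT (178–229 CPM).

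**Figure D1:**
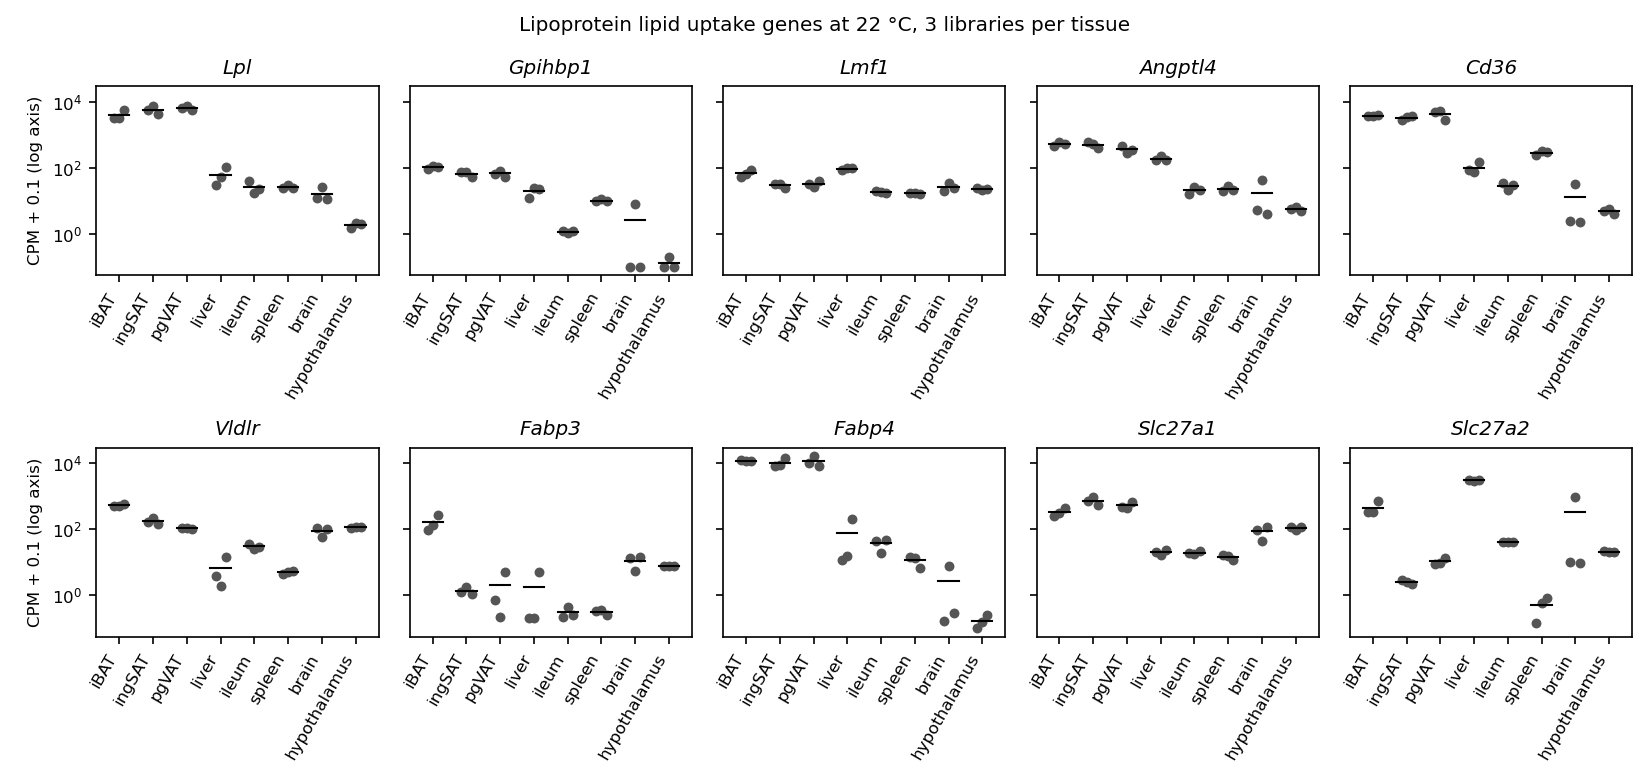
Each panel plots 1 gene in the 8 tissues of the cold experiment at 22 °C, as CPM plus 0.1 on a log axis, with 3 libraries per tissue as points and their mean as a bar. The adipose depots are highest for 8 of the 10 genes, and Fabp3 and Slc27a2 are the genes whose ingSAT libraries, at 1.03–2.85 CPM, lie furthest below those of iBAT.

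Each exposed group was compared with the 22 °C libraries of its tissue and experiment, in quadriceps with all 6 of that tissue, in 16 comparisons, by the quasi-likelihood test of edgeR, with p-values adjusted after Benjamini and Hochberg over all genes tested there. A gene was called at an adjusted p under 0.05. Of 160 pairs of a gene and a comparison, 145 were tested and 10 were called, 6 of them higher and 4 lower than at 22 °C, against 4.03% of all 211781 tests made over the 16 comparisons. There were 27 pairs with an unadjusted p under 0.05, against 14.7% of all tests, and 17 pairs that also changed by more than 1.5-fold, which are the limits used in the study, against 5.05%. The calls fell in 4 of the 16 comparisons, iBAT and ingSAT at 10 °C and iBAT and liver at 34 °C, and concerned 6 genes. By role, the lipase and its partners gave 2 higher and 2 lower calls in 61 tested pairs, the membrane receptors and carriers 2 and 2 in 60, and the binding proteins 2 higher calls and 0 lower in 24.

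**Figure D2:**
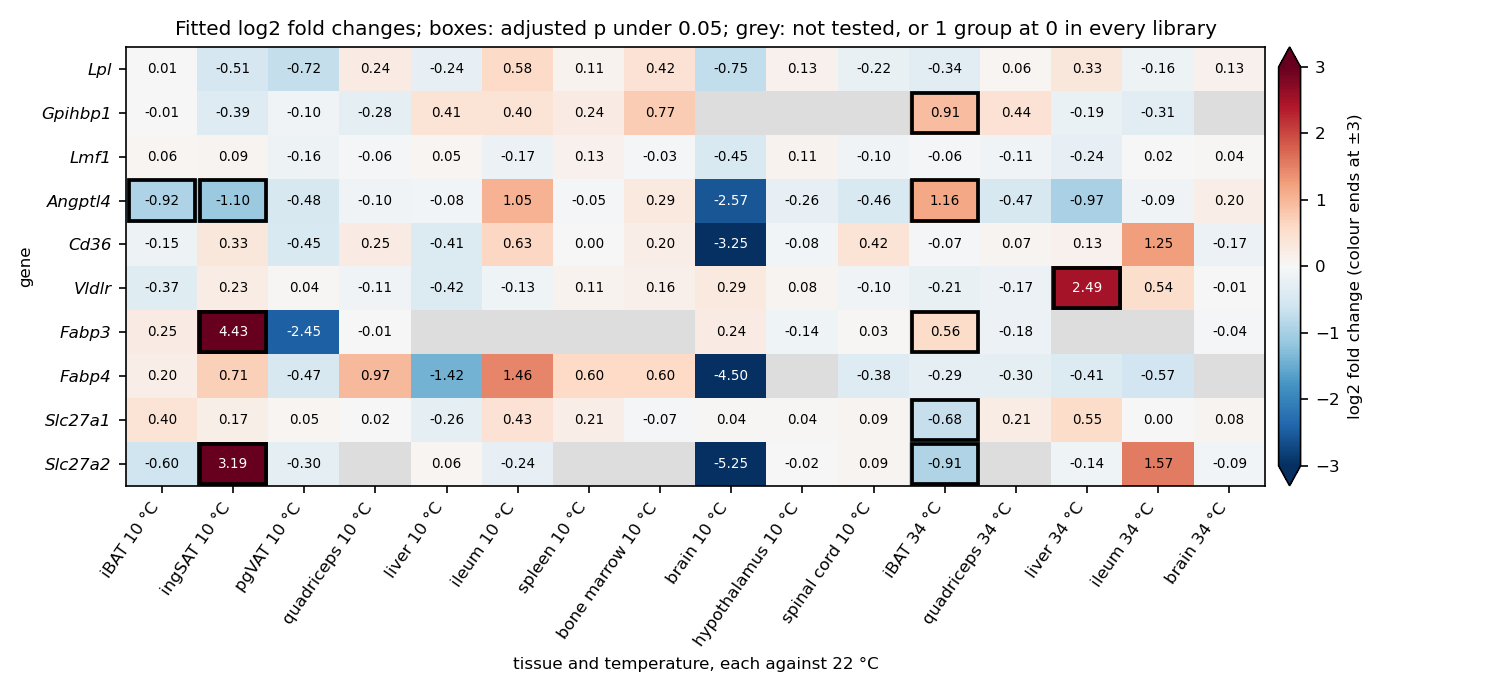
The grid gives the fitted log2 fold change of each of the 10 genes (rows) against 22 °C in each of the 16 comparisons (columns), red for higher and blue for lower, with colours ending at 3 and boxes around the 10 called pairs. Grey cells were not tested or had 1 group at 0 in every library, and the boxes lie in iBAT, ingSAT and liver alone.

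In iBAT at 10 °C, the lipase inhibitor Angptl4 fell and was the only one of the 10 genes called, against 11.3% of all genes tested in that comparison, and 5.07% in this direction. Angptl4 had 449, 590 and 522 CPM at 22 °C and 255, 328 and 259 CPM at 10 °C. The groups did not overlap. The log2 fold change was -0.92 ± 0.15 (SE), which is a 1.89-fold lower level, with an adjusted p of 0.00755 by edgeR's quasi-likelihood test. With 1 library left out at a time it lay between -1.04 and -0.82. Lpl, the enzyme it inhibits, had 3229, 3086 and 5586 CPM at 22 °C and 3476, 4743 and 3987 CPM at 10 °C, with overlapping groups and a log2 fold change of 0.01 ± 0.25. Gpihbp1 and Lmf1 were within 0.06 of 0 on the log2 scale, at -0.01 ± 0.11 and 0.06 ± 0.17.

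The receptor Vldlr had 489, 519 and 575 CPM at 22 °C and 382, 469 and 402 CPM at 10 °C in iBAT. Its groups did not overlap either, but the log2 fold change of -0.37 ± 0.13 had an adjusted p of 0.11 by edgeR's quasi-likelihood test. In the same comparison 14.8% of all genes tested were lower without overlap. With scaling by library size alone, Vldlr was called too, at -0.53 with an adjusted p of 0.023, but that scaling moved the median of all genes from -0.02 to -0.18 and the share of calls that were higher from 55.1% to 25.2%.

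Fabp3 and Slc27a1 in iBAT depended on 1 control library. Fabp3 had 92, 136 and 265 CPM at 22 °C and 181, 179 and 235 CPM at 10 °C, and Slc27a1 had 250, 309 and 428 CPM against 396, 502 and 425 CPM. The third control was the highest for both genes, and in both the groups overlapped. Without it, the log2 fold changes went from 0.25 to 0.75 for Fabp3 and from 0.40 to 0.61 for Slc27a1. Both passed edgeR's quasi-likelihood test, with adjusted p-values of 0.0307 and 0.0319, so that 3 genes were called. The share of all genes called in that fit is not given here, so this count has no background. Slc27a2 was at -0.60 ± 0.30 and not called.

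Marker genes of several cell types moved in the iBAT comparison at 10 °C. The sum over 5 brown adipocyte markers was 10070–16370 CPM at 22 °C and 17150–21650 CPM at 10 °C, with 1 of 5 called higher, and 1 of 6 adipocyte markers was called lower. The sum over 6 skeletal muscle markers was 7392–10280 CPM at 22 °C and 2975–6011 CPM at 10 °C, with 0 of 6 called. Hepatocyte markers went from 51.7–99.95 to 0.639–1.72 CPM, with 4 of 5 called lower, and epididymis markers from 0 in every control to 3.87–44.5 CPM, with 3 of 5 called higher. Capillary endothelium markers stayed at 781–1009 and 832–1233 CPM with 0 of 6 called. The part of these cells in the values of Angptl4 was not tested.

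In ingSAT at 10 °C, 3 of the 10 genes were called, against 7.51% of all genes tested there. The binding protein Fabp3 and the transport protein Slc27a2 rose from low levels (4.61% of all genes rose), and Angptl4 fell (2.9% of all genes fell). Fabp3 (chr4:130308595-130315463) had 1.16, 1.62 and 1.03 CPM at 22 °C and 27.2, 25.2 and 27.8 CPM at 10 °C. Every library at 10 °C was above every control. The log2 fold change was 4.43 ± 0.21 (SE), a 21.6-fold higher level, with an adjusted p of 0.000931 by edgeR's quasi-likelihood test, and it lay between 4.32 and 4.64 with 1 library left out at a time.

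Slc27a2 (chr2:126552407-126588243), whose promoter stretch is shown above, had 2.85, 2.37 and 2.05 CPM in ingSAT at 22 °C and 19.1, 24.2 and 20.5 CPM at 10 °C. The groups were far apart. The log2 fold change was 3.19 ± 0.22 (SE), a 9.11-fold higher level, with an adjusted p of 0.00227 by edgeR's quasi-likelihood test, and a range of 3.08 to 3.31 with 1 library left out. Angptl4 had 603, 511 and 380 CPM at 22 °C and 292, 199 and 188 CPM at 10 °C. Its groups did not overlap, and the log2 fold change was -1.10 ± 0.21 (SE) with an adjusted p of 0.0295 by the same test. This call was lost without the second or the third library at 10 °C (adjusted p of 0.126 and 0.187) or without the first or the second control (0.0909 and 0.103), while the log2 fold change stayed between -1.26 and -0.94.

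The remaining genes of ingSAT did not pass the test. The adipocyte binding protein Fabp4 had 8148, 8867 and 13791 CPM at 22 °C and 17712, 15428 and 15903 CPM at 10 °C. All 3 libraries at 10 °C were above the controls, but the log2 fold change of 0.71 ± 0.29 had an adjusted p of 0.17 by edgeR's quasi-likelihood test, and of 0.0174 by DESeq2. The third control was the highest for Fabp4 and the lowest for Gpihbp1. Without it, Fabp4 (1.02, adjusted p of 0.031) and Gpihbp1 (-0.50, adjusted p of 0.0174) were called by edgeR's quasi-likelihood test as well, 5 genes in all. The share of all genes called in that fit is not given here, so this count has no background. Lpl was at -0.51 ± 0.26 and Cd36 at 0.33 ± 0.22 on the log2 scale, both with overlapping groups.

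Brown adipocyte markers moved with Fabp3 and Slc27a2 in ingSAT. Their sum was 134–199 CPM at 22 °C and 2145–2529 CPM at 10 °C, and 5 of 5 were called higher, with none of them at 0 in either group. As a percentage of the iBAT mean at the same temperature, Fabp3 went from 0.772 to 13.5%, Slc27a2 from 0.542 to 7.08% and the summed markers from 1.39 to 11.9%. The sum over 6 adipocyte markers was 21990–24380 CPM at 22 °C and 11050–18830 CPM at 10 °C, and that over 6 capillary endothelium markers 326–860 and 369–483 CPM, with 0 of 6 called in both lists. Skeletal muscle markers were at 1020–2655 CPM at 22 °C and at 1222, 23.3 and 1492 CPM in the 3 libraries at 10 °C, and Fabp3 in the library with 23.3 CPM was 25.2 CPM. B cell markers were at 17.4, 42.3 and 121.5 CPM at 22 °C and at 6.15, 246 and 155.5 CPM at 10 °C, with 0 of 3 called. Macrophage markers were at 484–961 and 343–607 CPM, with 0 of 4 called. The part of brown adipocytes and of these other cells in the values of Fabp3, Slc27a2 and Angptl4 was not tested.

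Fabp3 shares its locus with Zcchc17 and Gm10570 and Slc27a2 shares its locus with Gm26697, all on the opposite strand, and whether the counting used strand is not stated. Gm10570 stayed at or below 0.162 CPM in ingSAT. Zcchc17 had a log2 fold change of 0.26 there, with an adjusted p of 0.20 by edgeR's quasi-likelihood test.

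**Figure D3:**
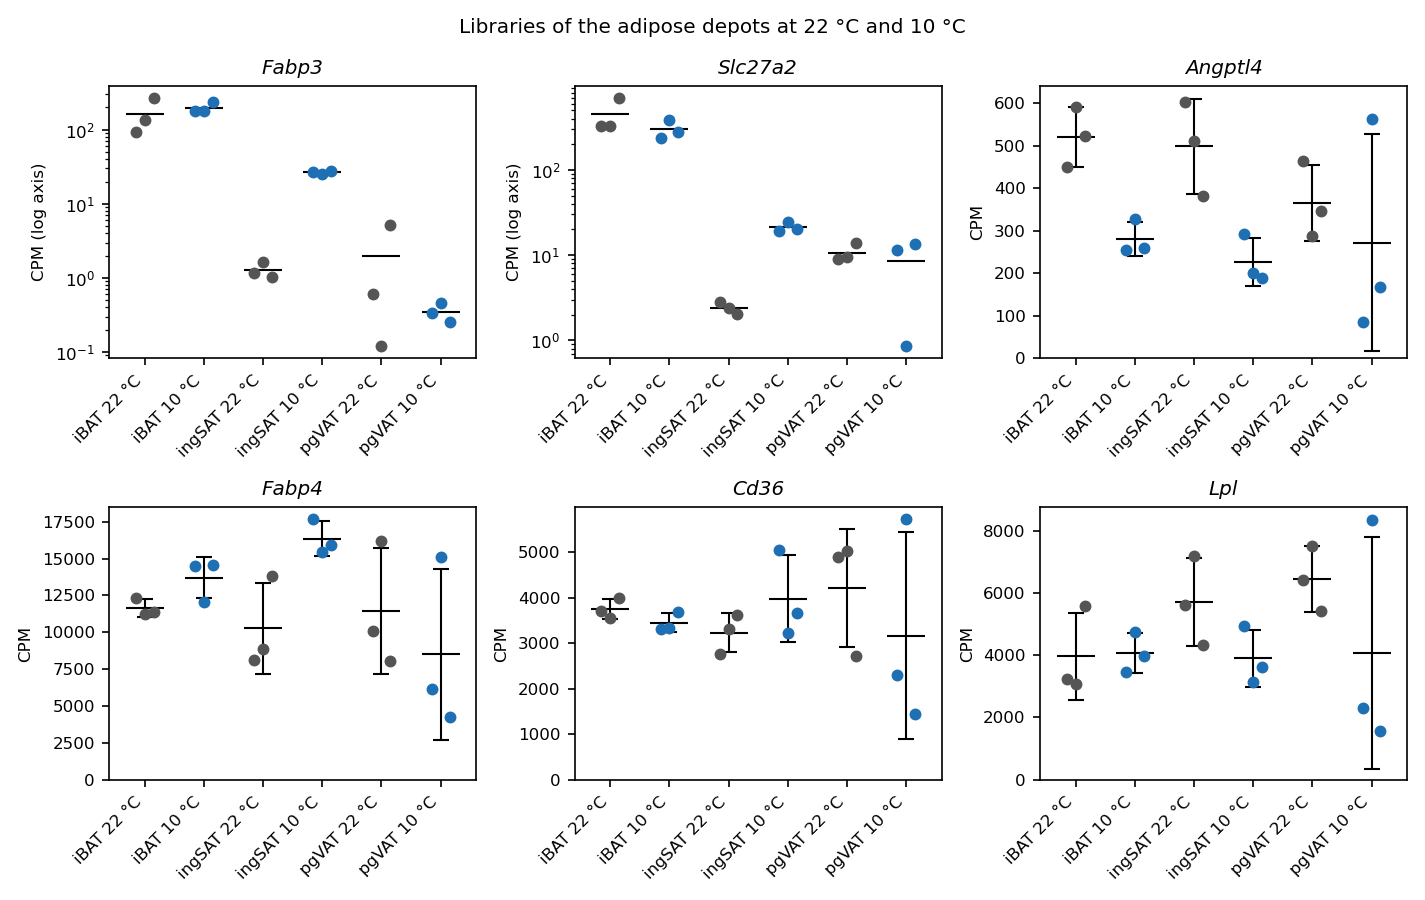
Each panel plots 1 gene as CPM in the libraries of iBAT, ingSAT and pgVAT at 22 °C (grey) and 10 °C (blue), 3 points per group, with the mean and, on the linear axes, the SD. Fabp3 and Slc27a2 (log axes, mean only) rise in ingSAT to 25.2–27.8 and 19.1–24.2 CPM, and the 3 pgVAT libraries at 10 °C spread from 1579 to 8344 CPM for Lpl.

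In pgVAT at 10 °C, 0 of the 10 genes were called, against 0% of all genes, with 8.12% of all genes and 0 of the 10 at an unadjusted p under 0.05. By other tools, 0 of the 10 were called by edgeR's exact test and by DESeq2. Lpl had 6416, 7517 and 5410 CPM at 22 °C and 2303, 8344 and 1579 CPM at 10 °C. The second library at 10 °C, which is the one low in epididymis markers, was above all controls and the other two were below them. Without it, Lpl was at -1.71 on the log2 scale and was called (adjusted p of 0.0335 by edgeR's quasi-likelihood test), and Angptl4 was at -1.52 with an adjusted p of 0.0615. Gpihbp1 went from -0.10 to -0.94 and Cd36 from -0.45 to -1.14 without being called. Slc27a2 had 0.862 CPM in that library and 11.4 and 13.5 CPM in the others at 10 °C, against 8.94–13.8 CPM at 22 °C. In the 2 other libraries the epididymis markers were above all controls. Adipocyte markers summed to 9760, 29980 and 8923 CPM in the 3 libraries at 10 °C and to 16130–23270 CPM at 22 °C, with 0 of 6 called. The part of epididymis cells and of adipocytes in the Lpl values was not tested.

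The response at 10 °C was then compared between tissues, in 1 fit of the 8 tissues of the same table. The effect of temperature differed among tissues for Fabp3 (adjusted p of 0.00189), Slc27a2 (0.00759), Cd36 (0.0414) and Angptl4 (0.0421) by edgeR's quasi-likelihood test, 4 of 10 genes, against 16.1% of all genes tested. With no filter beyond 1 count, Fabp3 and Slc27a2 alone passed. Without the brain library that had hepatocyte markers, the values were 0.000459 for Fabp3, 0.00175 for Slc27a2 and 0.0388 for Angptl4, and Cd36 was at 0.446, against 16.4% of all genes. Between the fat depots themselves, the response of Fabp3 was 4.12 ± 0.84 (SE) higher in ingSAT than in iBAT on the log2 scale (adjusted p of 0.00578), with 2.96% of all genes called in this test. That of Slc27a2 was 3.72 ± 1.22 higher with an adjusted p of 0.0868, and of 0.000347 without the brain library, which entered the estimate of the spread. The responses of Angptl4 in the depots differed by -0.24 ± 0.70, from a log2 fold change of -0.92 in iBAT and of -1.10 in ingSAT.

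In iBAT at 34 °C, 5 of the 10 genes were called, against 28.9% of all genes tested. The anchor Gpihbp1, the inhibitor Angptl4 and the binding protein Fabp3 rose, as did 13.5% of all genes, and the transport proteins Slc27a1 and Slc27a2 fell, as did 15.4%. Gpihbp1 (chr15:75596628-75599481) had 97.7, 85.5 and 81.0 CPM at 22 °C and 172, 159 and 169 CPM at 34 °C. The groups did not overlap, and the log2 fold change was 0.91 ± 0.10 (SE), a 1.88-fold higher level, with an adjusted p of 0.00183 by edgeR's quasi-likelihood test. Angptl4 had 327, 326 and 439 CPM at 22 °C and 975, 912 and 560 CPM at 34 °C. The third library at 34 °C was lower than the other two and still above the controls, and the log2 fold change was 1.16 ± 0.23 (SE) with an adjusted p of 0.0113 by the same test.

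Fabp3 had 467, 425 and 487 CPM in iBAT at 22 °C and 680, 592 and 770 CPM at 34 °C. Every warm library was above the controls, with a log2 fold change of 0.56 ± 0.12 (SE) and an adjusted p of 0.016 by edgeR's quasi-likelihood test. Slc27a1 (chr8:71568882-71587302) had 290, 259 and 246 CPM at 22 °C and 177, 140 and 179 CPM at 34 °C. All warm libraries were below the controls, and the log2 fold change was -0.68 ± 0.13 (SE) with an adjusted p of 0.0089 by the same test. Slc27a2 had 297, 322 and 350 CPM at 22 °C and 183, 126 and 208 CPM at 34 °C. The groups were apart here too, with a log2 fold change of -0.91 ± 0.18 (SE) and an adjusted p of 0.0118 by the same test.

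Scaling by library size alone moved the median of all genes in this comparison from 0.02 to 0.30 on the log2 scale and the share of calls that were higher from 46.6% to 86.1%. Under it, Slc27a1 was at -0.41 with an adjusted p of 0.0533 by edgeR's quasi-likelihood test, and the other 4 genes stayed called. The lipase itself had 4188, 3271 and 3437 CPM at 22 °C and 2676, 2620 and 3346 CPM at 34 °C. Its groups overlapped, at -0.34 ± 0.15 with an adjusted p of 0.12, and of 0.0387 by DESeq2. Fabp4 was lower in all warm libraries, from 8028–9725 to 5974–7877 CPM, but at -0.29 ± 0.15 it was not called. Cd36, Lmf1 and Vldlr lay between -0.21 and -0.06 with overlapping groups.

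Marker genes moved in the warm iBAT comparison as well. The sum over 5 brown adipocyte markers was 8579–11490 CPM at 22 °C and 4666–5783 CPM at 34 °C, with 2 of 5 called lower. The sum over 6 capillary endothelium markers was 544–697 CPM at 22 °C and 744–990 CPM at 34 °C, with 3 of 6 called higher, beside the endothelial gene Gpihbp1. Adipocyte markers were at 3704–4496 and 4491–5409 CPM, with 2 of 6 called higher and 1 lower. Macrophage markers were at 33.4–49.2 and 59.7–80.7 CPM, with 1 of 3 tested called higher. Skeletal muscle markers, beside Fabp3, were at 2.25, 3510 and 6.75 CPM at 22 °C and 2729, 744 and 864 CPM at 34 °C, and the control with 3510 CPM had the lowest Fabp3 of the 3, at 425 CPM. The part of these cells in the results was not tested. The cold and warm iBAT comparisons have controls of their own and were made in different sequencing centres, and in them Angptl4 was at -0.92 and 1.16 and Slc27a2 at -0.60 and -0.91.

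In liver at 34 °C, the receptor Vldlr was the only gene of the 10 called, against 0.385% of all genes tested and 0.116% in this direction. Vldlr (chr19:27216484-27254231) had 1.81, 0.879 and 1.22 CPM at 22 °C and 7.07, 10.2 and 5.02 CPM at 34 °C. Every warm library was above the controls, all at low levels, and the log2 fold change was 2.49 ± 0.34 (SE), a 5.63-fold higher level, with an adjusted p of 0.0284 by edgeR's quasi-likelihood test. The call was lost without any 1 of the 3 controls or without the first warm library, with adjusted p-values of 0.0544, 0.136, 0.161 and 0.0775, while the log2 fold change stayed between 2.20 and 2.80. Vldlr in liver of the cold experiment was at 3.72, 1.75 and 14.6 CPM at 22 °C, the last in the library with adipocyte markers, and at 3.97–6.31 CPM at 10 °C.

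Angptl4 and Slc27a1 in liver at 34 °C were called by some tools only. Angptl4 had 219, 253 and 272 CPM at 22 °C and 167, 79.7 and 136 CPM at 34 °C, and Slc27a1 had 12.4, 12.1 and 13.3 CPM against 20, 19.2 and 16.7 CPM. Neither gene's groups overlapped, the warm libraries being lower for Angptl4 and higher for Slc27a1. The log2 fold changes were -0.97 ± 0.23 and 0.55 ± 0.12, with adjusted p-values of 0.18 and 0.15 by edgeR's quasi-likelihood test. By edgeR's exact test they were 0.00956 and 0.0191, and by DESeq2 0.000978 and 0.0155.

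**Figure D4:**
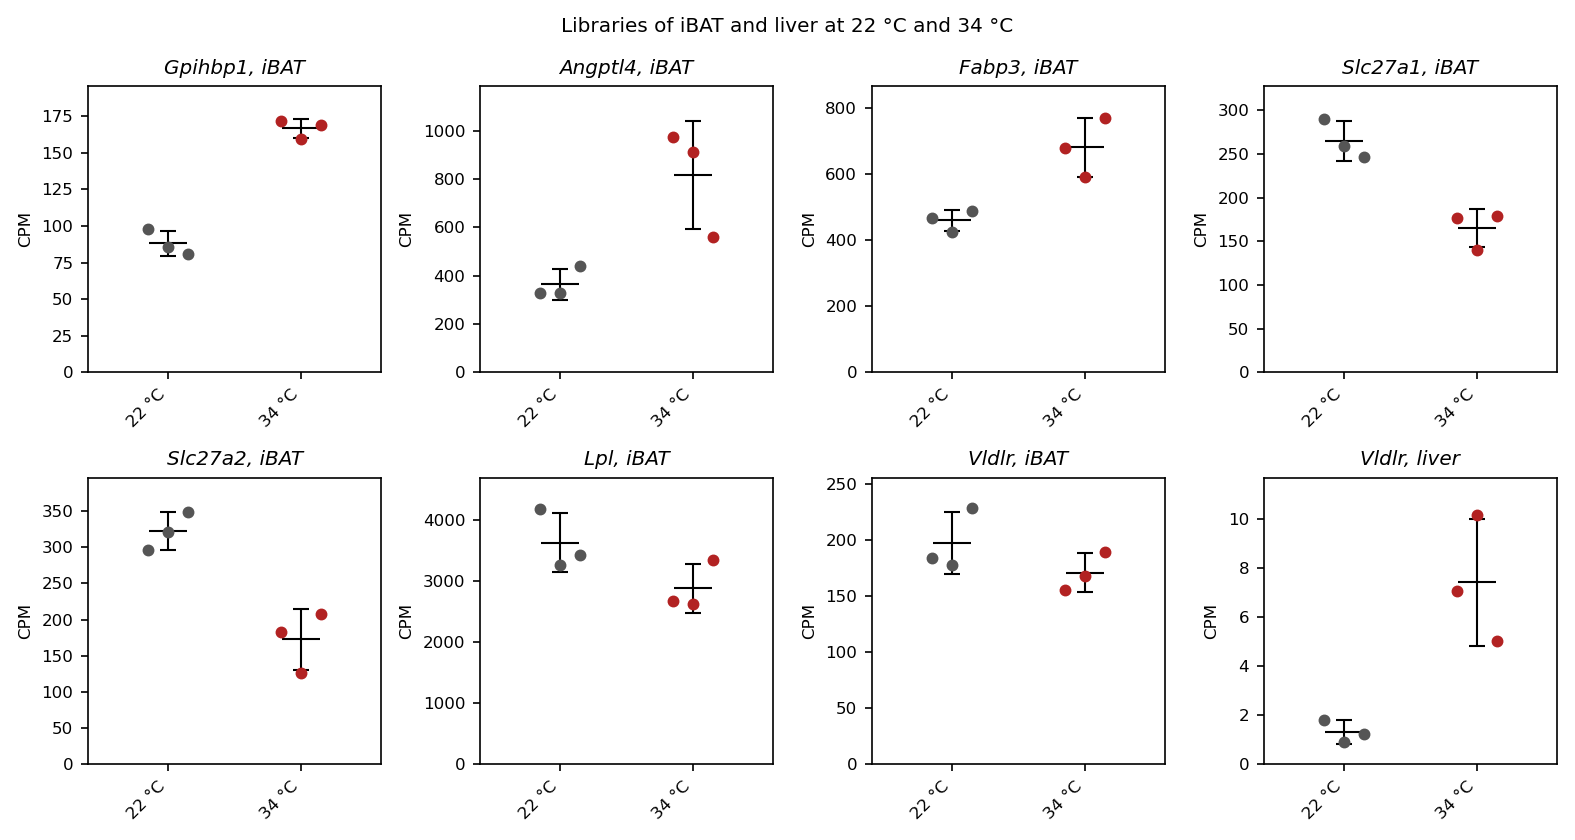
Each panel plots 1 gene as CPM in iBAT, or for the last panel in liver, with 3 libraries at 22 °C (grey) and 3 at 34 °C (red), and the mean ± SD in black. The groups of Gpihbp1, Angptl4, Fabp3, Slc27a1 and Slc27a2 in iBAT and of Vldlr in liver do not overlap, while those of Lpl and Vldlr in iBAT do.

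Among the 5 tissues with libraries at 34 °C, the effect of temperature differed for 3 of the 10 genes, against 11.7% of all genes tested. The adjusted p by edgeR's quasi-likelihood test was 2.41e-06 for Vldlr, 0.00528 for Angptl4 and 0.00769 for Slc27a1. For Slc27a1 it was 0.189 with scaling by library size alone, and Fabp3 was then called at 0.029. For Slc27a1, the fitted log2 fold change was -0.68 in iBAT and 0.55 in liver, and for Angptl4 it was 1.16 in iBAT and -0.97 in liver.

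In the other 12 comparisons 0 of 106 tested pairs were called by edgeR's quasi-likelihood test, while 11 had an unadjusted p under 0.05, against 10.6% of all genes tested in the same comparisons. By edgeR's exact test 4 pairs were called, against 2.29% of all genes, and by DESeq2 1, against 2.77%. Of all genes, the test called 19% in bone marrow, 0.338% in quadriceps at 10 °C, 0.0779% in spleen, 0.0639% in ileum at 10 °C, 0.00695% in spinal cord and 0% in the rest. In bone marrow, 4 of the 8 genes tested had an unadjusted p under 0.05, against 33% of all genes tested there. Lpl had a lowest, median and highest value of 51.6, 78.8 and 111 CPM at 22 °C and of 97.8, 105 and 117 CPM at 10 °C, and Fabp4 of 8.13, 17.4 and 28.4 CPM and of 18, 27.8 and 29 CPM. The groups overlapped for both. The log2 fold changes were 0.42 ± 0.15 for Lpl, 0.60 ± 0.21 for Fabp4 and 0.77 ± 0.28 for Gpihbp1, with adjusted p-values of 0.0566, 0.0557 and 0.0691, and of 0.0284, 0.0299 and 0.0329 by edgeR's exact test, which called 20.3% of all genes. The sum over 6 adipocyte markers was 10.4–25.7 CPM at 22 °C and 17.5–25.8 CPM at 10 °C, with Lep at 0 and 1 of the 2 tested called higher. Of other markers, 3 of 3 for B cells and 2 of 2 tested for red cell precursors were called higher, and of 3 tested for macrophages 1 was called higher and 1 lower. The part of these cells in the values was not tested.

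In ileum at 10 °C, Angptl4 had 16.3, 26.7 and 21.1 CPM at 22 °C and 44.7, 58.4 and 29.5 CPM at 10 °C. The groups did not overlap, and the log2 fold change of 1.05 ± 0.26 had an adjusted p of 0.14 by edgeR's quasi-likelihood test, 0.0135 by edgeR's exact test and 0.00129 by DESeq2. Fabp4 had 45.1, 19.5 and 48.1 CPM against 171, 83.8 and 54.4 CPM, also without overlap, at 1.46 ± 0.47 with an adjusted p of 0.20. Adipocyte markers summed to 81.9, 28.4 and 79.2 CPM at 22 °C and 232, 170 and 60.5 CPM at 10 °C, and their part in the Fabp4 values was not tested. In ileum at 34 °C, the second warm library had 81.0 CPM of Cd36 and 78.0 CPM of Slc27a2, against 7.48 and 11.6 CPM and 18.5 and 23.5 CPM in the other two, and without it Cd36 went from 1.25 to -0.55 on the log2 scale. Enterocyte markers summed to 6899, 19290 and 15040 CPM in the 3 warm libraries and to 6878–10090 CPM in their controls. B cell markers summed to 87.3, 2.39 and 3.29 CPM and to 35.1–209 CPM. The part of these cells in the values was not tested.

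Quadriceps gave 0 calls at both temperatures. At 10 °C, Fabp4 had 663, 698 and 272 CPM, against 182, 255 and 499 CPM as the lowest, median and highest of the 6 controls. The third library at 10 °C lay within the controls and the others above them, and the log2 fold change of 0.97 ± 0.36 had an adjusted p of 0.32 by edgeR's quasi-likelihood test. With the 3 controls that share a column prefix with the exposed libraries, it was 1.39 with an adjusted p of 0.359, Vldlr went from -0.11 to 0.07 at 10 °C and Cd36 from 0.07 to -0.05 at 34 °C, and 0 genes were called at either temperature. Adipocyte markers summed to 689, 822 and 311 CPM in the 3 libraries at 10 °C and to 187–519 CPM in the controls. Brown adipocyte markers summed to 883, 884 and 655 CPM at 10 °C and to 631–885 CPM in the controls. Their median log2 fold change was 2.84, with 0 of 5 called. Epididymis markers summed to 203.7, 0.0812 and 0 CPM in the same 3 libraries and to at most 0.123 CPM in the controls. The part of these cells in the Fabp4 values was not tested. Fabp3, the heart and muscle type, was at -0.01 ± 0.12 at 10 °C and -0.18 ± 0.12 at 34 °C, and Lpl at 0.24 ± 0.15 and 0.06 ± 0.14.

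Brain at 10 °C showed large fitted differences that rested on 1 control. Slc27a2 had 9.76, 958 and 9.42 CPM at 22 °C and 10.3, 11.8 and 9.95 CPM at 10 °C, and the second control was the library with hepatocyte markers. With it the log2 fold change was -5.25 ± 2.12, and without it 0.14. Angptl4 went from -2.57 to -0.40 and Cd36 from -3.25 to -0.54 in the same way, and 0 of the 10 genes were called in either fit. Gpihbp1 had 7.70 CPM in that library and 0 in the other 5, so no fold is given. In liver at 10 °C, Fabp4 had 11.4, 15.4 and 202 CPM at 22 °C and 17.1, 54.5 and 15.9 CPM at 10 °C, and without the third control, the one with adipocyte markers, its log2 fold change went from -1.42 to 1.07 and was not called in either case. Lpl went from -0.24 to 0.35 and Vldlr from -0.42 to 0.86 without that control, also uncalled.

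Other genes of the pathway were described from lists of 40 genes, chosen with earlier results of these data known. In iBAT at 10 °C, 7 were called higher and 4 lower of 32 tested, against 11.3% of all genes called there. The sorting receptor Sorl1 rose by 2.59 ± 0.18 (SE) on the log2 scale and the acyl-CoA synthetase Acsl5 by 2.01 ± 0.22. Fabp1, the liver type binding protein, was at 2.29–4.68 CPM at 22 °C and at 0 in every library at 10 °C, at least 14.9-fold lower against a floor of 3 counts per library, and hepatocyte markers fell in the same libraries. In iBAT at 34 °C, 3 were called higher and 9 lower of 25 tested, against 28.9% of all genes. Acsl5 fell by 2.33 ± 0.21, Sorl1 by 2.12 ± 0.34, the coactivator Ppargc1a by 1.45 ± 0.26 and the acyl-CoA synthetase Acsl1 by 1.33 ± 0.11 on the log2 scale.

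In ingSAT at 10 °C, 8 of these genes were called higher and 2 lower of 34 tested, against 7.51% of all genes. Angptl8, a secreted partner of the lipase inhibitors, rose by 2.09 ± 0.27 (SE) on the log2 scale, from 9.36–14.7 to 31.7–56.3 CPM. Acsl5 rose by 1.51 ± 0.15, the binding protein Fabp5 by 1.39 ± 0.18 and Acsl3 by 1.35 ± 0.26. In bone marrow, 3 were called higher and 4 lower of 27 tested, against 19% of all genes, all within 0.61 of 0, among them the hepatic type lipase Lipc at 0.61 ± 0.16 and the transport protein Slc27a4 at -0.42 ± 0.09. Acsl5 in quadriceps, at 1.60 ± 0.25, and the intestinal binding protein Fabp2 in ileum, at 1.30 ± 0.14, were the only calls at 10 °C in those tissues, of 24 and 36 tested, and the remaining 10 comparisons gave 0. Fabp2 is also 1 of the 5 enterocyte markers, whose sum in ileum was 6605–7113 CPM at 22 °C and 10870–11220 CPM at 10 °C. The part of enterocytes in the Fabp2 values, and of adipocytes in those of Acsl5, was not tested.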

How the data were processed

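Bulk mRNA of mouse tissues was sequenced by the authors at 2 sites with different kits. The deposited tables hold raw counts of reads per gene, made by the authors with STAR and HTSeq on mm10. The submitters' processing notes name STAR 2.5.3a, HTSeq 0.6p1 and Picard 1.141, and the methods name other versions. The strand setting and annotation release are not given in the sources used here. Temperatures were read from sample titles, because the treatment text gives 34 °C for every sample.

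From the counts, CPM were scaled by TMM over each table, and levels were compared within a table. Every contrast used the libraries of its 2 groups alone, in edgeR 4.0.16 under R 4.3.3 (quasi-likelihood F-test, TMM, average log2 CPM above 0, Benjamini-Hochberg adjustment over all genes). The interactions were fitted over all tissues of a table. Depth ran from 4262403 to 62880248 counts per library. Most libraries pool 2 mice, and for them p-values measure the spread between pools. In bone marrow and spinal cord they measure the spread between single mice. The warm iBAT comparison mixes single mice with a pool.

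The genes, the pathway lists and the marker lists were chosen with earlier results of these data known. From the pathway lists, the up to 4 called genes with the largest change per comparison were named. One item under this rule is not reported here. Levels per kb used the principal transcript. For likeness, log2(CPM + 0.5) was used. Alternatives were edgeR's exact test, DESeq2 1.42.0, library size scaling, no filter beyond 1 count, the limits of the study (unadjusted p of at most 0.05 and 1.5-fold), the replicate number as a block and leaving out 1 library in groups of at most 5. Controls of the same label prefix in quadriceps, the fit without 1 brain library and tissue means by library size alone were added after the data were seen. Scripts were tested on simulated data. Warm ingSAT and pgVAT were not analysed here.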

Additional observations from a re-analysis of the deposited data

Results flagged for a closer look

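In groups of 4 to 10 libraries, 50 sets of values were checked for a library far from the rest by Dixon's test at the 95% level, which chance alone passes in about 1 in 20 sets. The 5 that passed were Lmf1 in the first quadriceps control with the prefix QM (23.2 CPM, next 17.7, lowest 14.4), Angptl4 in bone marrow control 5 (5.32 CPM, next 9.30), Fabp4 in bone marrow library 2 at 10 °C (18 CPM, next 25, highest 29), Slc27a1 in spinal cord library 4 at 10 °C (146 CPM, next 117) and Gpihbp1 in spinal cord library 3 at 10 °C (0.0726 CPM, the others at 0). None of these genes was called in the tissue concerned.

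Differences between tissues in the effect of temperature passed edgeR's quasi-likelihood test at 10 °C for Fabp3 (adjusted p of 0.00189), Slc27a2 (0.00759), Cd36 (0.0414) and Angptl4 (0.0421), and at 34 °C for Vldlr (2.41e-06), Angptl4 (0.00528) and Slc27a1 (0.00769). By the same test, Cd36 was at 0.446 without the brain library that had hepatocyte markers. With no filter beyond 1 count, Cd36 (0.0538) and Angptl4 (0.0554) did not pass at 10 °C. Slc27a1 at 34 °C was at 0.189 with scaling by library size alone. The response of Fabp3 at 10 °C was 4.12 higher in ingSAT than in iBAT on the log2 scale, and 3.60 to 4.41 higher with 1 library of these depots left out at a time.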

How the results depend on the processing

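Of the 10 called pairs, 7 kept the call in all alternative fits, among which the limits of the study were not counted. The call of Angptl4 in ingSAT was lost in 4 of 11 fits, that of Slc27a1 in iBAT at 34 °C in 1 of 10 and that of Vldlr in liver at 34 °C in 4 of 10. The number of called pairs went from 10 to 16 with edgeR's exact test and 17 with the limits of the study. The 17 leave out Fabp3 in iBAT at 34 °C, 1 of the 7 pairs, whose change was below the fold limit. In that comparison 3 genes were called higher and 2 were higher within these limits. By comparison, scaling by library size gave 2 in iBAT at 10 °C in place of 1, the exact test and DESeq2 gave 1 in ileum at 10 °C in place of 0 and 3 in liver at 34 °C in place of 1, and the exact test gave 3 in bone marrow in place of 0. With 1 library left out, counts ranged from 1 to 3 in iBAT at 10 °C, from 2 to 5 in ingSAT, from 0 to 1 in pgVAT and from 0 to 1 in liver at 34 °C. The shares of all genes called in these fits are not given here. With no filter beyond 1 count, 2 genes in place of 4 differed among tissues at 10 °C, and with the brain library set aside 2 in place of 1 differed between ingSAT and iBAT. The causes were not tested. Same-numbered libraries correlated between -0.689 and 0.429 and in no comparison all above 0.1. With the replicate block, fitted for the 10 numbered comparisons at 10 °C, 1 gene was called in iBAT, 3 in ingSAT and 0 in the others, as without it, and the quadriceps and 34 °C comparisons had no such fit.

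Over all genes, edgeR's exact test and DESeq2 called 1865 and 2270 genes in ingSAT in place of 1050, 204 and 311 in quadriceps at 10 °C in place of 40, 332 and 566 in ileum in place of 9 and 225 and 286 in liver at 34 °C in place of 43. In liver at 10 °C they called 469 and 530 in place of 0 and in pgVAT 40 and 157 in place of 0. Leaving out libraries of bone marrow and quadriceps controls, and 2 sets of quadriceps controls by label number, were not run.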

Other observations

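Over the 16 group means of the 8 tissues of the cold experiment, 14538 genes were searched for those whose level on the log2(CPM + 0.5) scale followed each of the 10 most closely by Pearson's r. The points share libraries and scaling, so r is a description. Gpihbp1 was most like Cd300lg (r = 0.9966), followed by Btnl9 and Stat5a. Fabp4 was most like the lipid droplet gene Cidec (0.992), with the triglyceride lipase Pnpla2 and the adipokine Adipoq next. Lpl was most like Lgals1 (0.99) and Spg21 (0.9889), with Fabp4, another of the 10, after them (0.9789). Slc27a2 was most like the peroxisomal reductase Decr2 (0.9785), Slc27a1 like Ankef1 (0.99) and Fabp3 like Lyrm7 (0.9689). Angptl4 was most like Cped1 (0.9817), with the adipocyte transcription factor Cebpa next (0.975).

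The 10 genes together made up 2.23% ± 0.41 (SD, n = 3) of all counts in ingSAT at 22 °C and 2.80% ± 0.00809 at 10 °C, most of it Fabp4, Lpl and Cd36. In iBAT they took 1.87% ± 0.16 at 22 °C and 1.76% ± 0.11 at 10 °C, and in hypothalamus 0.035% at 22 °C and 0.0361% at 10 °C.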
